A study of Homo sapiens with 2 samples.

Results

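The genes described here encode the subunits of the vacuolar H+-ATPase (V-ATPase) and the cathepsins. They were chosen by symbol: every gene whose symbol begins with ATP6V0, ATP6V1 or ATP6AP, and 15 named cathepsins, without pseudogenes, where a probe set of the array is paired with that gene alone. The rule gave 37 genes read by 77 probe sets, out of 19775 genes and 41091 probe sets. They are 8 genes of the membrane sector V0, 12 of the cytosolic sector V1, 2 accessory proteins and 15 cathepsins. ATP6V1F shares its probe set with another locus and ATP6V0A4 has no probe set paired with it alone here, so neither was analysed here. The symbols ATP6AP1-DT and ATP6V0E2-AS1 match the letters of the rule but name long non-coding RNAs, and are kept apart.

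The V-ATPase is a rotary pump in the membranes of lysosomes, endosomes and secretory vesicles, and in the plasma membrane of some cells. The V1 sector hydrolyses ATP in the cytosol, and the V0 sector carries protons through the membrane. The acid it makes activates the cathepsins, the proteases that break down proteins inside lysosomes. Many lysosomal genes, V-ATPase subunits and cathepsins among them, carry the CLEAR element in their promoters, a DNA sequence bound by the transcription factor TFEB and its relatives TFE3 and MITF.

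HCT116 is an established cell line from a human colorectal cancer, and its total RNA was hybridised to 2 expression arrays, 1 for each group. The first group, HCT116-GFP, is labelled wild type, and the second, HCT116-CPEB4, is labelled as over-expressing CPEB4, an RNA-binding protein that regulates poly(A) tails, from a lentiviral vector. Both lines were grown in the same medium with serum and antibiotics. The sources used here do not say whether each line is a clone or whether the GFP line also received a vector. With 1 array a group there is no replicate check, no p-value was computed, and a difference below describes these arrays and not the conditions.

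No kept probe set of CPEB4 was brighter on the array labelled HCT116-CPEB4, with differences of −0.44, −0.22 and −0.08 at these 3, and CPEB2 (−0.56) and CPEB3 (−0.43) were not brighter at their brightest probe sets either. All differences are log2 values of the CPEB4-labelled array minus the HCT116-GFP array, and their direction rests on the labels. Of 8 colon epithelial markers, 7 passed the dim filter, a minimum of 60.8 intensity units on the brighter array, and the intensities of all 8 summed to 87558 on the GFP array and 88457 on the other. Under it were 6 of 9 blood and macrophage markers (sums 581 and 524), 4 of 6 of fibroblasts (1108 and 1499) and 3 of 4 of endothelium (232 and 131), 2 of 3 measured osteoclast markers (132 and 93.7) and 1 of 4 measured markers of kidney and HEK293 cells (498 and 637). Interferon-stimulated genes had a median difference of 2.10 over 24 genes, led by IFIT3 (3.95) and IFIT1 (3.72). The ratio of 3′ to 5′ signal of ACTB, which grows with RNA degradation, was 8.23 and 10.3, and that of GAPDH was 0.989 and 1.04. The part of these differences between the arrays in the results below was not tested.

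V-ATPase genes read slightly higher on the CPEB4-labelled array, and cathepsin genes were split. The median difference was 0.26 over the 21 V-ATPase genes that passed the dim filter, and −0.03 over 13 cathepsins, beside 0.00 over all 13704 genes. Of the V-ATPase genes, 16 lay above 0 and 5 below. Of the cathepsins, 5 lay above and 8 below, while 50.1% of all genes lay above 0 and 49.9% below. At 2-fold, which sets a size and tests nothing, 0 members were higher (3.55% of all genes). The 2 lower members were ATP6V1B1 and CTSF (3.85% of all genes), and both were dim. Both were kept through the GFP array alone, so only a lower value was possible. With both arrays at the dim filter, 0 members passed 2-fold, beside 89 of 12130 genes higher and 70 lower.

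**Figure D1:**
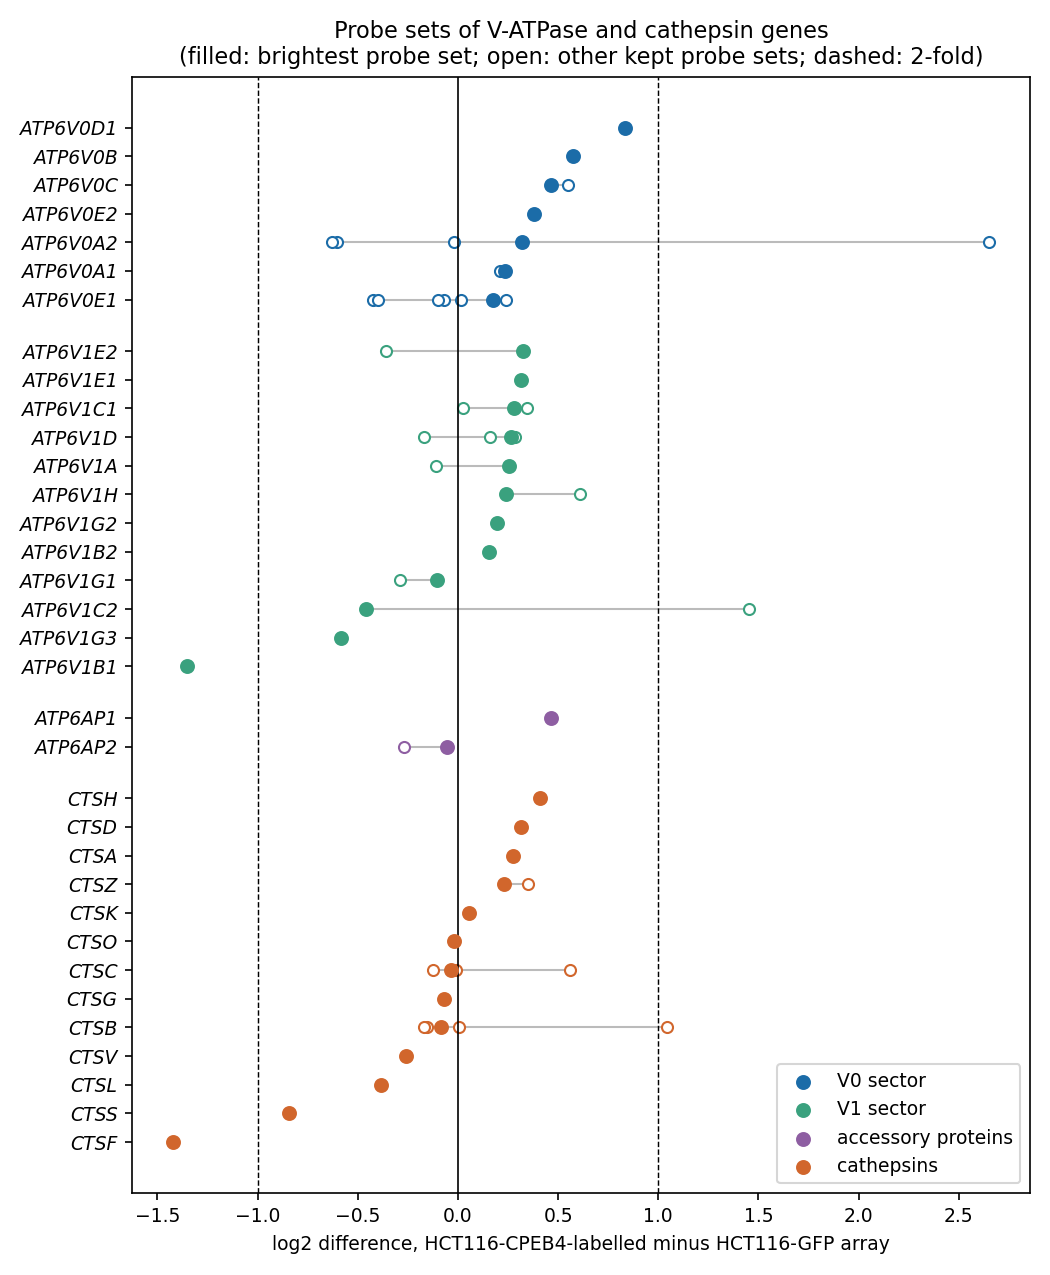
Log2 difference of the CPEB4-labelled minus the HCT116-GFP array for each member that passed the dim filter. Filled points are the brightest probe set of a gene, open points its other kept probe sets, grey lines their range and dashed lines 2-fold. All 7 V0 genes lie to the right of 0 at their brightest probe set, from 0.17 to 0.83, while the filled points of the cathepsins lie on both sides, from −1.42 to 0.41.

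Brightness bears on how firmly these values can be read. Among genes with at least 2 kept probe sets, the 2 brightest differed from each other by a median of 0.27. The median was 0.18 where the brighter array reached 377 units, the 75th percentile of all values. The 2 had opposite signs in 41.1% of such genes, and in 35.1% at that stricter filter. Among members this held for 4 of 15 genes, and for 0 of 7 at the stricter filter. Under that stricter filter 16 V-ATPase genes remained, 14 of them above 0 (50.2% of all genes) and 2 below (49.8%), with a median of 0.27. Of these and the 7 cathepsins left, 0 passed 2-fold in either direction, beside 0.473% of all genes upwards and 0.165% downwards. In this set 5 V-ATPase genes were higher by 1.3-fold or more (8.57% of all genes) and 0 lower (8.15%). Of these 5, ATP6V0B, ATP6V0E2 and ATP6AP1 each rest on 1 probe set marked for possible cross-hybridisation. Without marked probe sets, 2 of 15 V-ATPase genes that passed the dim filter were higher by this fold, beside 1724 of all 10575 genes. Under the dim filter the same fold counted 5 V-ATPase genes higher (14.8%) and 3 lower (15%). Of the 3 lower, ATP6V1B1 and ATP6V1G3 were kept through the GFP array alone. This smaller fold was chosen after the values were seen.

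Promoter sequences are shown for the 5 members that hold an 8-base core of the CLEAR element, GTCACGTG on either strand, because 2 of them, ATP6V0D1 and ATP6V0B, have the largest positive differences of all kept members. Each window of 30 bases is from the RefSeq promoter sequences of build GRCh38.p14, upstream of the annotated start of the gene, written 5′ to 3′ on the strand of the gene with the match in capitals.
ATP6V0D1: gcccccttatgGTCACGTGaggcgcttgcg
ATP6V0B: accggcgtgggGTCACGTGgtaccggcgca
CTSD: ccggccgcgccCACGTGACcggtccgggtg
CTSA, distal match: ggaggaagactGTCACGTGgcgccggagtt
CTSA, proximal match: gcgccggagttCACGTGACtcgtacacatg
ATP6V1G1: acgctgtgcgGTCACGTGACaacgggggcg

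The ATP6V0D1 window is at chr16:67481200-67481229 on the minus strand, and its match begins 61 bases before the start. The ATP6V0B window is at chr1:43974890-43974919 on the plus strand, with the match 59 bases before the start. That of CTSD is at chr11:1763956-1763985 on the minus strand, and its match, on the opposite strand of the gene, begins 47 bases before the start. CTSA has windows at chr20:45891280-45891309 and chr20:45891299-45891328 on the plus strand, with matches 44 and 25 bases before the start. The ATP6V1G1 window is at chr9:114587699-114587728 on the plus strand, where matches on both strands overlap in the palindrome GTCACGTGAC, 60 bases before the start. Only promoter sequences around annotated starts were searched, so that the matches lie near a start was set by the search.

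Of the 37 members, 25 have a promoter sequence in the RefSeq table, and 5 of these hold GTCACGTG, or 20%, beside 2.93% of all 27305 genes in it. The shorter E-box CACGTG, which lies inside it, was found in 7 of the 25 members, beside 8.77% of all genes; the further ones are ATP6V0E2 and CTSF. The 27305 genes include many without a kept probe set here. Of the kept genes with a promoter sequence, 546 hold GTCACGTG and 10495 do not, and 1352 hold CACGTG and 9689 do not. Because the CLEAR element is known from lysosomal genes, V-ATPase and cathepsin genes among them, the larger share in members is no new result. The match to GTCACGTG did not go with 1 direction. The members with GTCACGTG differed by 0.83 (ATP6V0D1), 0.58 (ATP6V0B), 0.31 (CTSD), 0.27 (CTSA) and −0.10 (ATP6V1G1). Over all measured genes, the median difference was 0.02 for 546 genes with GTCACGTG and 0.00 for 10495 without it. A match of letters is a description and not a binding site.

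The V0 sector was higher in all 7 of its kept genes at the brightest probe set, with a median of 0.38. Over all 19 kept V0 probe sets, 12 lay above 0 and 7 below, and with the mean over probe sets 6 of 7 genes lay above 0. ATP6V0D1, the d subunit that couples V0 to the central stalk, read 1037 on the GFP and 1847 on the CPEB4-labelled array. This difference of 0.83, or 1.78-fold, was the largest positive one among the kept members, and exceeded that of 99.5% of 1371 genes of similar brightness. It rests on 1 probe set. ATP6V0B, a proteolipid of the proton-carrying ring, read 3500.5 and 5218 (0.58, 1.49-fold), also on 1 probe set, which is marked for possible cross-hybridisation. The main ring proteolipid ATP6V0C read 2910.3 and 4022 (0.47), and its other probe set read 1310 and 1915 (0.55), so both probe sets of this gene were higher by similar amounts.

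ATP6V0E2, a small V0 subunit, read 608 and 792 (0.38). Its paralogue ATP6V0E1 read 5902 and 6653 at its brightest probe set (0.17), but its 7 probe sets ran from −0.42 to 0.24. The direction of ATP6V0E1 is not settled: it was −0.08 as the mean over probe sets and −0.10 without probe sets marked for cross-hybridisation. The a subunits, which form the proton half-channels and steer the pump to its membrane, were represented by ATP6V0A1 and ATP6V0A2. ATP6V0A1 read 459.6 and 541 (0.24), and its dimmer probe set gave 0.21.

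ATP6V0A2, the a isoform known from Golgi and endosomes, had the widest disagreement of all members over kept probe sets. Its brightest probe set read 294 and 368 (0.32), the next 229 and 226 (−0.02), and then 144 and 95.0 (−0.60), 87.8 and 56.7 (−0.63), and 13.6 and 85.7 (2.65). Its remaining probe set was under the dim filter on both arrays. The 4 kept probe sets other than the dimmest on the GFP array thus stayed between −0.63 and 0.32. ATP6V0D2, the d isoform of osteoclasts and kidney, was under the filter at all 3 of its probe sets, at most 51.3 units.

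**Figure D2:**
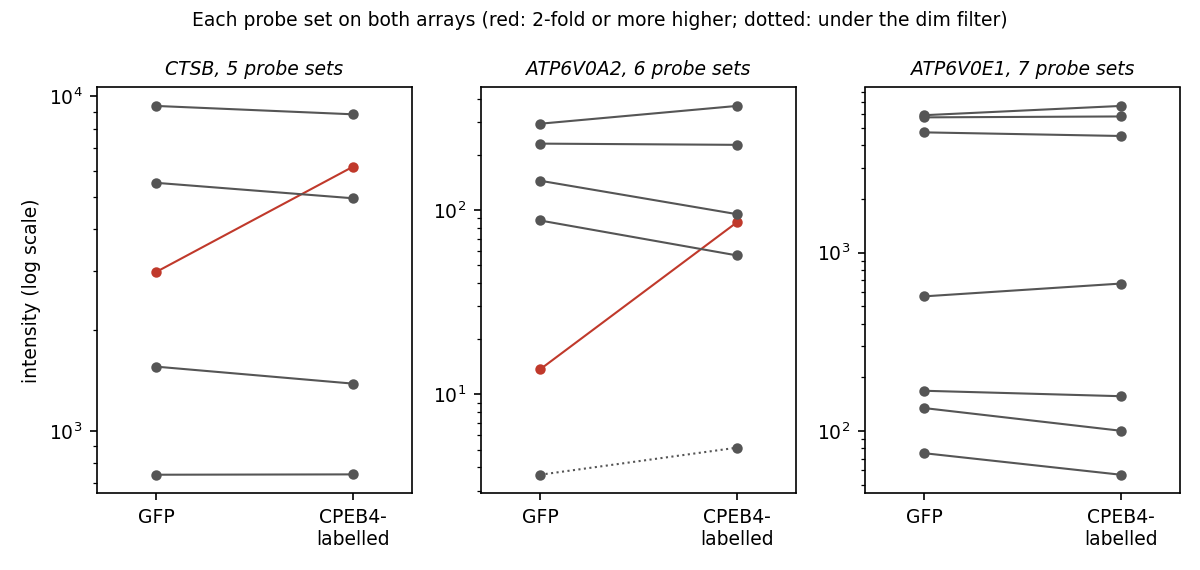
Intensity of every probe set of CTSB, ATP6V0A2 and ATP6V0E1 on both arrays, on log axes with a different range in each panel. Red lines are 2-fold or more higher on the CPEB4-labelled array and dotted lines are under the dim filter. In CTSB 1 of 5 probe sets parts from the others (2986 to 6159), and in ATP6V0A2 1 of 6 (13.6 to 85.7).

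In the V1 sector 8 of 12 genes lay above 0, with a median of 0.22. The broadly expressed genes ATP6V1A, ATP6V1B2, ATP6V1C1, ATP6V1D, ATP6V1E1 and ATP6V1H were higher by 0.16 to 0.32 at their brightest probe sets. ATP6V1A, the catalytic A subunit, read 3600.2 and 4303 (0.26), with −0.11 at its dimmer probe set. ATP6V1B2, the broadly expressed B subunit, read 1789 and 1995 (0.16). ATP6V1D, the central stalk, read 3964 and 4762 (0.26), and its next brightest probe set gave 0.28. Its 2 dim probe sets gave 0.16 and −0.17.

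ATP6V1E1, a peripheral stalk subunit, read 5747 and 7154 (0.32), above 95.8% of genes of similar brightness. ATP6V1C1, which joins V1 to V0 during assembly, read 2350 and 2849 (0.28), with 0.34 and 0.03 at its other kept probe sets. ATP6V1H, the regulatory H subunit, read 1610.2 and 1899 (0.24). All 3 genes were thus higher at each kept probe set, by at most 0.61, the value of a dim probe set of ATP6V1H. ATP6V1E2, the testis form of E, read 333 and 417 (0.32), but its dimmer probe set gave −0.36 and the mean of both was −0.02. ATP6V1G2, a form of G known from neurons, read 116 and 133 (0.19).

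Lower values in V1 at the brightest probe set were those of the ubiquitous G subunit ATP6V1G1 and of ATP6V1C2, ATP6V1B1 and ATP6V1G3. ATP6V1G1 was the exception among the bright V1 genes, at 8040.4 and 7487 (−0.10), and its dimmer probe set gave −0.29. ATP6V1C2 read 321 and 233 (−0.46), while its other probe set read 33.2 and 90.9 (1.45), so its direction is not settled. ATP6V1B1, the B subunit of renal intercalated cells, read 79.8 and 31.2 (−1.35), and its other probe set, under the filter, read 16.6 and 51.0 (1.62). ATP6V1G3 read 66.7 and 44.5 (−0.58). Both ATP6V1B1 and ATP6V1G3 were under the filter on the CPEB4-labelled array. The GFP array alone kept them, so only a lower value was possible. Of genes of similar brightness, 78.2% and 61.3% had a higher difference.

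The accessory proteins went apart. ATP6AP1, which guides the assembly of V0, read 1420 and 1958 (0.46, 1.38-fold), above 95.7% of genes of similar brightness. This rests on 1 probe set, which is marked for possible cross-hybridisation. ATP6AP2, the prorenin receptor, read 10542 and 10156 (−0.05), with −0.27 at its other kept probe set. TCIRG1, the a3 subunit of lysosomes and osteoclasts, is not named by the rule. It read 133 and 254 (0.94) on 1 probe set, which does not reach the stricter filter and is marked for possible cross-hybridisation.

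**Figure D3:**
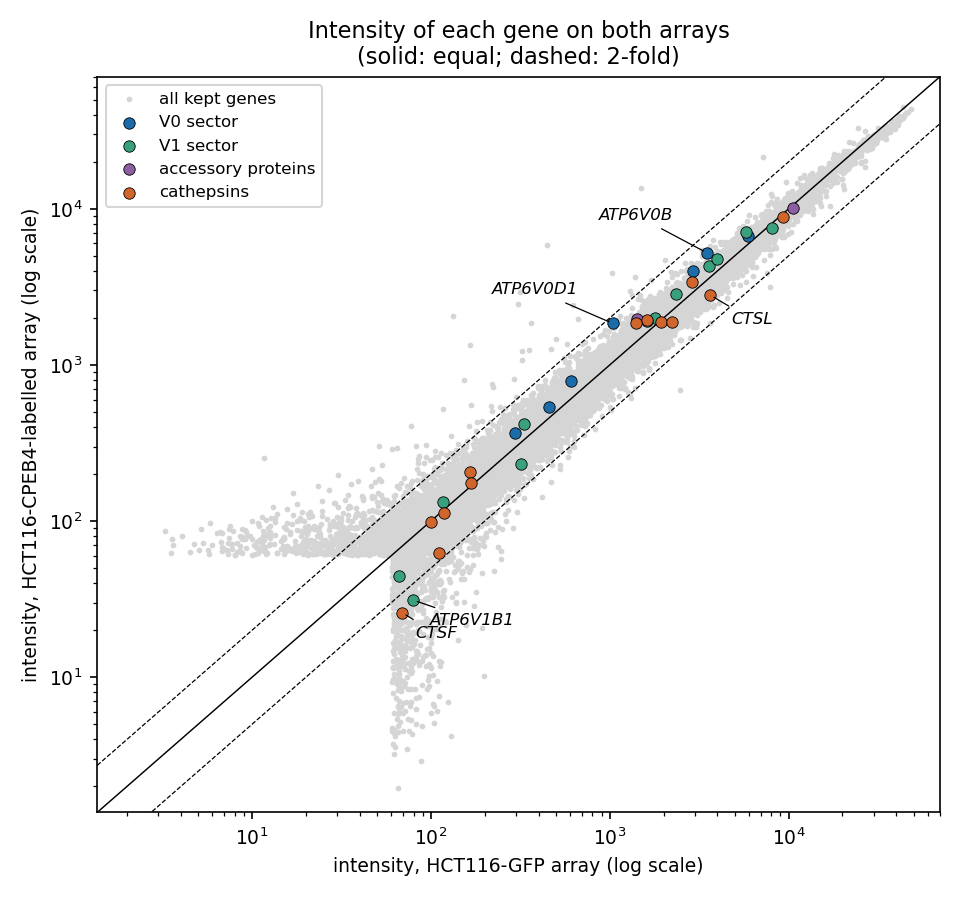
Intensity of each gene on the HCT116-GFP array (horizontal) and the CPEB4-labelled array (vertical), both on log axes, at its brightest kept probe set. Grey points are all 13704 kept genes, coloured points the members, the solid line equality and dashed lines 2-fold. ATP6V0D1 (1037 and 1847) lies just inside the upper 2-fold line, and the members beyond the lower line, ATP6V1B1 and CTSF, lie in the dim corner.

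Cathepsins differ in their catalytic residue, and kept serine and cysteine cathepsins lay on both sides of 0, while CTSD is the 1 kept aspartic cathepsin. The serine carboxypeptidase CTSA, which also protects lysosomal glycosidases, read 1615 and 1951 (0.27). CTSG, the serine protease of neutrophil granules, read 119 and 113 (−0.07). CTSD, the main aspartic protease of lysosomes, read 167 and 207 (0.31) on 1 probe set, which does not reach the stricter filter. Its relative CTSE was under the dim filter at 42.8 and 58.7.

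Among the cysteine cathepsins, CTSH and CTSZ were higher and CTSL and CTSV lower. CTSH, an aminopeptidase, read 1400.2 and 1859 (0.41, 1.33-fold), the highest of the kept cathepsins and above 93.9% of genes of similar brightness. CTSZ, a carboxypeptidase, read 2884 and 3381 (0.23), and its dimmer probe set gave 0.35. CTSL, an endopeptidase of nearly all cells, read 3656 and 2797 (−0.39, 1.31-fold lower), and 94.8% of genes of similar brightness had a higher difference. Its close relative CTSV read 2238 and 1871 (−0.26). CTSL and CTSV each have 1 probe set, so neither value has a second reading on these arrays. The probe sets of CTSL, CTSH and CTSZ are marked for possible cross-hybridisation, and that of CTSV is not.

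CTSB, an endopeptidase often abundant in tumours, had 5 kept probe sets. The brightest read 9359 and 8835 (−0.08), and others 5514 and 4958 (−0.15), 1557 and 1385 (−0.17) and 740.1 and 742 (0.00). The remaining probe set read 2986 and 6159 (1.04), and is the only one of CTSB with the suffix _x_at. The suffix _s_at is carried by 2 of the others, and both suffixes were counted here as marks for possible cross-hybridisation. The 4 probe sets other than the one at 1.04 stayed within 0.17 of 0. Of the 12750 probe sets that passed the stricter filter, 0.541% were 2-fold or more higher, a share that does not measure gaps within a gene. Among genes with at least 2 such probe sets, the 2 brightest differed from each other by a median of 0.18. The mean over the probe sets of CTSB was 0.13, so its direction depends on the probe set at 1.04.

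CTSC, which activates the serine proteases of immune cells, read 1924 and 1880.0 (−0.03), with −0.12 and −0.01 at its other bright probe sets and 0.56 at a dim one. CTSK, the collagenase of osteoclasts, read 168 and 174 (0.05), and CTSO read 100.4 and 99.1 (−0.02). These 3 genes were thus close to equal on both arrays. CTSS, a protease of antigen-presenting cells, read 112 and 62.3 (−0.84). Its 2 probe sets under the filter read 27.4 and 5.54, and 8.95 and 28.9, so CTSS was dim throughout, while interferon-stimulated genes were higher as a list. CTSF read 69.3 and 25.9 (−1.42), the lowest kept member, but the GFP array alone kept it, so only a lower value was possible. CTSW, known from cytotoxic lymphocytes, was under the filter at 22.4 and 9.35.

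Other lists of lysosomal genes had medians between −0.27 and 0.11, and differences between lists were not tested. Assembly factors and regulators of the V-ATPase had a median of 0.11 over 13 genes, with 7 above 0, 0 higher by 2-fold and 1 lower. TLDC2 read 99.9 and 47.0 (−1.09), its CPEB4-labelled value under the dim filter, and the V0 assembly factor VMA22 read 1257 and 886 (−0.50). Sorting factors of the mannose 6-phosphate pathway had a median of 0.09 over 9 of 10 genes, with 8 above 0 and 0 past 2-fold. Among them were the adaptor GGA2 (0.74, with probe sets from −0.17) and NAGPA, which uncovers the mannose 6-phosphate tag (0.48).

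Lysosomal glycosidases, lipases and other hydrolases had a median of 0.02 over 25 of 34 genes, with 13 above 0. ARSA, a sulfatase, read 19.7 and 77.1 (1.97), its GFP value under the dim filter, and was the 1 gene past 2-fold. ACP2, the lysosomal acid phosphatase, read 288 and 561 (0.96). The list of other lysosomal peptidases had a median of −0.27 over 9 genes, with 4 above 0, 5 below and 0 past 2-fold. It includes RNASET2, a ribonuclease and not a peptidase, and that median is the value of RNASET2. The serine carboxypeptidases SCPEP1 and PRCP both differed by −0.49, although the 3 probe sets of PRCP ran from −1.67 to −0.16. Lysosomal membrane proteins had a median of −0.07 over 24 genes, with 11 above 0 and 0 past 2-fold, among them the cystine exporter CTNS (0.54) and the cholesterol transporter NPC1 (−0.52, with 1.27 at its other probe set).

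**Figure D4:**
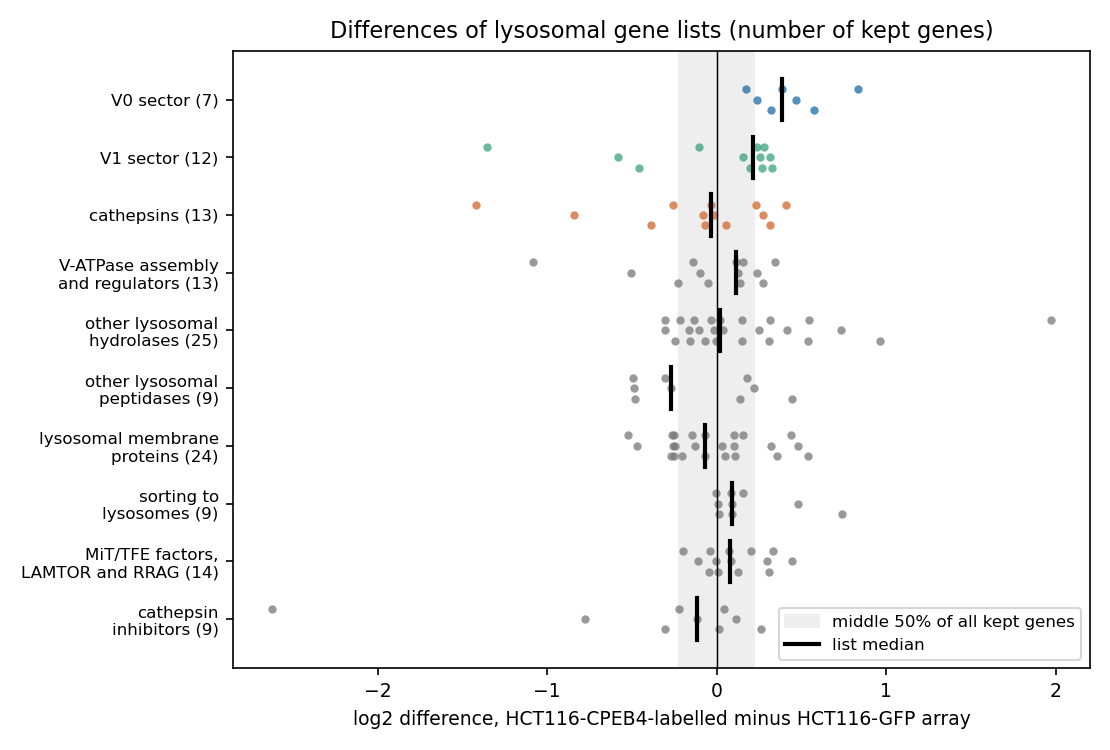
Log2 difference of the CPEB4-labelled minus the HCT116-GFP array for genes of 10 lists, each point 1 gene at its brightest kept probe set, with the number of genes in brackets. Black bars are list medians and the grey band holds the middle 50% of all kept genes. The V0 median (0.38) lies to the right of the band, the V1 median (0.22) lies near its right edge and the cathepsin median (−0.03) lies within it.

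Among genes that govern lysosome production, none passed 2-fold at its brightest probe set. TFEB read 229 and 288 (0.33), TFE3 read 712.4 and 691.5 (−0.04) and MITF read 186 and 187 (0.01). With the LAMTOR and RRAG genes, which hold mTORC1 at the lysosome, and the FLCN and FNIP genes, the list had a median of 0.08 over 14 of 16 genes, with 9 above 0 and 0 past 2-fold. The largest of these values was that of FNIP2 (0.44). Some genes of this list had kept probe sets far apart, from −0.52 to 2.94 in FLCN and from −0.77 to 1.14 in FNIP1. Inhibitors of cathepsins had a median of −0.12 over 9 of 14 genes, with 4 above 0, 0 higher by 2-fold and 1 lower. The serpins SERPINA3 (76.4 and 12.4, −2.62) and SERPINB3 (83.7 and 48.9, −0.78) were dim on the CPEB4-labelled array. CSTB, a bright intracellular cystatin, read 11817 and 10890.3 (−0.12), and its dimmer probe set gave 0.18.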

How the data were processed

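The authors' deposited table holds 1 linear intensity per probe set for each of 2 arrays. The submitters' processing notes name Partek without a version; for background correction, summarisation and scaling the method is not given in the sources used. The trimmed means of both arrays are 500.1 (2% removed at each end), so an overall shift between the RNA samples would not be seen. The number of arrays limits the precision. All columns were mapped to a group by the sample titles.

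Of 54675 probe sets, 41097 were paired with 1 gene, 1801 with several (left out) and 11777 with none by the platform annotation; for 41043 probe sets the Entrez identifier was found in the RefSeq table of GRCh38.p14, whose symbol was used. Log2 differences were taken without a pseudocount. Probe sets with the suffix _x_at, _s_at, _a_at or _f_at were counted as marked for possible cross-hybridisation, without telling these suffixes apart. Among members with 1 kept probe set, those of ATP6V0B, ATP6V0E2, ATP6AP1, CTSF, CTSH, CTSK and CTSL are marked. A probe set was kept if its higher intensity reached 60.8, the 50th percentile of all values, which left 13704 genes, and each gene took its kept probe set of highest mean log2 intensity. Genes of similar brightness are those in the same of 10 equal bins of that mean. Only the fold threshold was checked on simulated data, with planted shifts above it and small noise, so the outcome was set in advance. The dim filter and the choice of probe set were not part of that check. Normalizations used limma 3.58.1.

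The members and gene lists were chosen with earlier results of these data known. Every member is accounted for. Of each list of lysosomal, interferon-stimulated or CPEB genes, the 2 largest absolute differences were named, and TFEB, TFE3, MITF, TCIRG1 and CPEB4 by rule; CSTB was chosen after its value was seen.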

Additional observations from a re-analysis of the deposited data

How the results depend on the processing

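The results were recomputed under 8 alternatives: no dim filter, the 75th percentile filter, both arrays at the dim filter, the mean over probe sets, no probe sets marked for cross-hybridisation, quantile and cyclic loess normalization, and a pseudocount of 16. The V-ATPase median stayed above 0 in all 8, from 0.22 to 0.27, as did the V0 median (0.32 to 0.42) and the V1 median (0.15 to 0.26). The cathepsin median ran from −0.05 to 0.05 and was above 0 only with the mean over probe sets. No accessory gene was left without the probe sets marked for cross-hybridisation, so that median could not be computed. Medians of all genes moved by less than 0.1. The 1 V-ATPase gene 2-fold lower, a V1 gene, became 0 under the 75th percentile filter and where both arrays had to pass the dim filter. The 1 cathepsin 2-fold lower became 2 of 15 with no dim filter. It became 0 under the 75th percentile filter, with both arrays at the dim filter and without probe sets marked for cross-hybridisation. Of all genes, 1875 of 19775 were 2-fold lower with no dim filter and 14 of 8463 under the 75th percentile filter. With both arrays at the dim filter 70 of 12130 were, and without marked probe sets 463 of 10575. Called at 1.3-fold, 5 V-ATPase genes were higher (4 in V0 and 1 accessory) and 3 lower, all in V1, and 1 cathepsin was higher and 3 lower. Of all genes, 14.8% were higher at this fold and 15% lower. Without probe sets marked for cross-hybridisation, 2 of 15 V-ATPase genes were higher at this fold, both in V0, beside 1724 of all 10575 genes. With the mean over probe sets, 7 of 21 V-ATPase genes were higher, beside 2227 of all 13704 genes. Without the marked probe sets 4 of 5 V0 genes lay above 0. Over all kept V-ATPase probe sets, 27 lay above 0 and 17 below. Of 261 values of single genes under these alternatives, 256 moved by at most 0.27, the median gap between probe sets. The other 5 were ATP6V0E1 (−0.10) without cross-hybridising probe sets, ATP6V1C2 (0.50) and ATP6V1E2 (−0.02) with the mean over probe sets, and ATP6V1B1 (−1.02) and CTSF (−1.03) with the pseudocount. Many of the 256 could not move. The filters mostly left the same brightest probe set, and the mean equals the value of a gene with 1 kept probe set. The count of 256 thus does not measure how firm the values are. The median of the cathepsin inhibitors was 0.03 with no dim filter and 0.01 under the other filters. No paired analysis was possible because each group has 1 array, and no replicate could be left out.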

Other observations

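Non-coding transcripts beside the V-ATPase genes were also read by the arrays. ATP6AP1-DT, the divergent transcript named for ATP6AP1, read 376 and 459.0 (0.29), a difference of the same sign as that of ATP6AP1. ATP6V0E2-AS1, the antisense transcript named for ATP6V0E2, read 74.1 and 62.8 (−0.24), the opposite sign to ATP6V0E2 (0.38). Each has 1 probe set, and no source used here gives the strand that it reads.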
